A study of Sus scrofa with 12 samples.

Results

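Circular RNAs (circRNAs) made of annotated exons were counted in pig liver, and the hosts that give many different circles are described here. A host gene was taken where the deposited circRNA table lists at least 15 circles of annotated exons for it off chromosomes X and Y. The rule used the number of listed circles and no value of any group. A circle is listed only where it was counted, so the rule is not independent of the counts pooled over all libraries. It took 165 hosts with 3620 circles, which is 3.51% of the 4706 hosts of such circles and 19.4% of their 18670 circles, or 15.0% of all 24177 circRNAs listed. Just inside the threshold, 24 hosts with 15 circles had a median of 324.5 counts, of which their most used circle held a median of 36.2%, and just outside it 41 hosts with 14 circles had 253 counts and 33.7%. Another 4 hosts on chromosome X that reach 15 circles were left out. A symbol is given there for 156 hosts and 5 more took one from Ensembl names. The last 4 are known here by a description only. Coordinates are those of the deposited table, and the genome build behind them is not given in the sources used here.

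A circRNA forms when the spliceosome joins the end of an exon (the donor) to the start of the same or an earlier exon (the acceptor), a reaction called back-splicing. The ring has no free end, so the exonucleases that shorten linear RNA do not reach it, and circRNAs are therefore known to persist in cells that rarely divide, such as hepatocytes. One gene can give many circles because different acceptors and donors of the same transcript can be joined, often where long introns with repeated sequence flank the exons. Each circle competes with the linear messenger RNA of its host for the same exons.

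The livers came from 12 pigs (Sus scrofa) of 2 breeds, Bama, a small southern Chinese pig, and Hezuo, a plateau pig whose cold resistance the study set out to examine. In each breed, 3 pigs were housed at room temperature (23 ± 2 °C) and 3 in the cold (-15 ± 2 °C), and livers were taken on day 15. Pigs at room temperature are called warm here and the others cold. The labels name no genetic change, drug or other agent in any group, and give the same ventilation and feed for all. The room temperature pigs of each breed are the controls, and the labels do not give the pigs' ages or sexes. Total RNA was depleted of ribosomal RNA and not treated to remove linear RNA, so circles and their hosts' linear RNA were read in the same libraries.

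Libraries held between 39117 and 75616 back-splice counts and between 20041285 and 30188037 estimated gene counts. The liver label was checked on hepatocyte markers: 11 of 12 had a row, and their summed level lay between 134399 and 149404 CPM (counts scaled to library size) in warm Bama, 50625 and 114781 in cold Bama, 181942 and 202247 in warm Hezuo, and 89359 and 170433 in cold Hezuo pigs. In the cold 4 of the 11 were lower (AHSG, SERPINA1, TF and TTR), as were 5 of 12 stellate and mesenchymal markers. Of 6 cholangiocyte markers tested 1 (CDH1) was lower in the cold, while 1 of 11 Kupffer cell markers was higher. Of all genes tested 3.89% were called in the cold and 12% between breeds. In Hezuo 3 hepatocyte markers were higher, 5 of 9 T and NK cell markers were lower and 1 was higher, CD79A of the B cell list was lower, LRAT of the stellate list was higher, and KDR and VWF of the endothelial list were called, 1 in each direction. Of 5 erythroid markers HEMGN was called, and the list had a median breed difference of 1.78 on the log2 scale. Their summed levels lay between 1394 and 5295 CPM in warm Bama and between 4459 and 14794 in warm Hezuo. In the cold they lay between 235 and 3604 in Bama and between 2306 and 20945 in Hezuo, so the breeds overlapped. The messenger RNA of DDX3Y, a gene of the Y chromosome, passed 100 estimated counts in 8 libraries, namely all 6 of Hezuo and cold Bama pigs 1 and 3, so the breeds also differ in this respect. The part of these differences in the results was not tested. Some fits hold a term for Y-linked RNA, but by that threshold it varies within a group only in cold Bama. These fits therefore cannot tell it apart from breed and temperature. In bulk liver, fewer cells of a type and less RNA per cell cannot be told apart.

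The 3620 circles held 118588 back-splice counts, which is 22.6% of the counts of exonic circles off X and Y and 18.9% of all back-splice counts. Most of them were rare. The median circle had 9.5 counts over all 12 libraries, against 8 for circles of hosts with 2 to 14 circles and 6 for circles that are the only one of their host. Counts were found in all 12 libraries for 383 circles (10.6%) and in 1 library for 559 (15.4%), and 318 circles had 2 counts in all, the fewest any listed circle has. At the other end 216 circles with at least 100 counts held 55.4% of the counts, and the 10 most counted circles held 18.3%. To be tested a circle needed 2 counts or more in 3 libraries and 10 in total, which 1669 members (46.1%) had.

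The hosts with the most circles and those with the most counts were largely not the same: of 12 in each ranking 3 were in both, namely TRPM7, ABCA6 and a host described as organic anion transporter 1B3. VWA8, which encodes a mitochondrial ATPase, had the most circles, 52, yet these shared 893 counts. Next came CHD2, a chromatin remodeller, with 48 circles and 983 counts, BIRC6, a very large ubiquitin-conjugating inhibitor of apoptosis, with 45 and 882, and SMARCC1, a core subunit of the SWI/SNF remodeller, with 42 and 1245. IQGAP2, a cytoskeletal scaffold, had 39 circles, the ubiquitin ligase ITCH 38, SEC24A of the vesicle coat 37, complement factor C5 36, the cation channel and kinase TRPM7 35, and PCCA, a subunit of propionyl-CoA carboxylase, 34. By counts the leader was TUT7, which adds uridines to RNA ends, with 6632 counts from 16 circles. It was followed by PICALM, a clathrin assembly protein, with 6317 from 19, the integrin subunit ITGA9 with 4019 from 28, TRPM7 with 3581, the plasma protein kininogen (KNG1) with 3205, and SLC5A10 with 2555 from 21. SLC5A10 is a sugar transporter in the table's naming, but Ensembl names the same identifier PRPSAP2, so its identity is uncertain. Across the 165 hosts the number of circles and the counts correlated at a Spearman rho of 0.41, a description of hosts that share the same 12 libraries. A circle must be counted to be listed, so both measures are tied from the start.

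**Figure D1:**
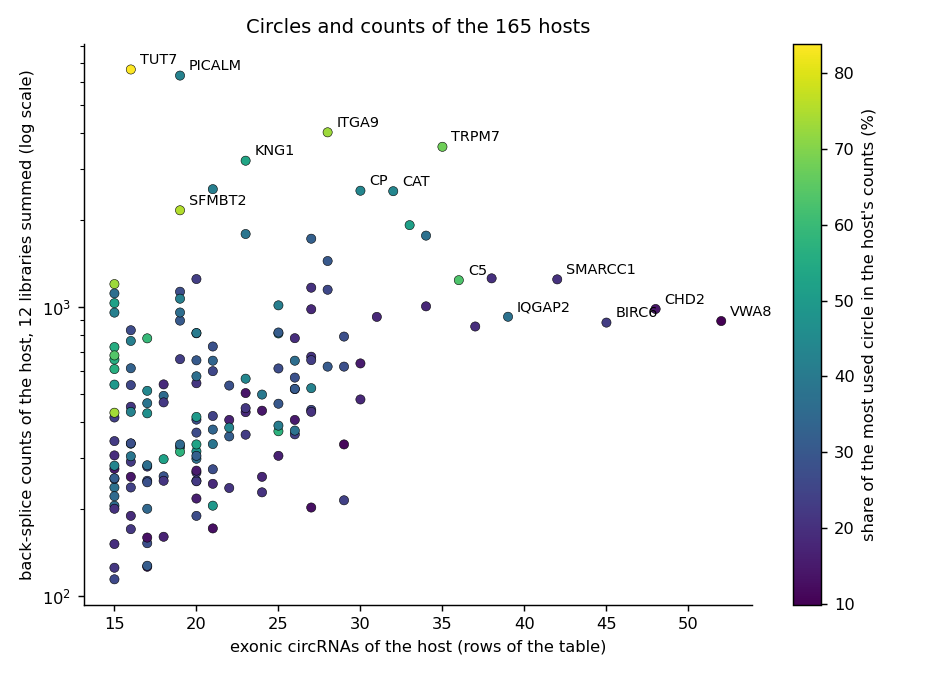
Back-splice counts over all 12 libraries (log axis) against the number of listed exonic circles of each of the 165 hosts, each point 1 host. VWA8 lies farthest right with 52 circles and 893 counts, and TUT7 and PICALM lie highest with 6632 and 6317 counts from 16 and 19 circles.

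The hosts ranged from those that pour nearly all counts into 1 circle to those that spread them widely. The most used circle of a host held between 9.85% and 83.9% of its counts, with a median of 28.3%. It held over 50% in 19 hosts and under 20% in 31. In the effective number of circles (the inverse of the summed squared shares, which equals the listed number when all are used equally), hosts ranged from 1.40 to 24.0 with a median of 6.99, against a median of 2.24 in hosts with 2 to 14 circles, which have fewer circles to share among. A median of 3 circles held 50% of a host's counts. Hosts with more counts tended to have a more dominant circle (rho 0.32), and the number of circles ran slightly the other way (rho -0.20).

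TUT7 was the extreme of concentration. Its circle chr10:29037750-29038934 (370 nucleotides when spliced) had 5564 of the host's 6632 counts, 83.9%, and the second, chr10:29028959-29035802, held 10.4%. In the single libraries the leading circle had 515, 407 and 658 counts in warm Bama, 300, 418 and 447 in cold Bama, 553, 415 and 560 in warm Hezuo, and 427, 331 and 533 in cold Hezuo. Every library was led by this circle, and its share of the host stayed between 77.8% and 89.9%.

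VWA8 was the opposite. Its most used circle, chr11:25317027-25328875, had 88 counts, 9.85% of the host, and chr11:25209180-25224424 followed with 81 and chr11:25209180-25240454 with 58. Its effective number of circles, 24.0, was the highest of the 165. CHD2 was spread in a like way: chr7:86044906-86087677, a long circle of 2127 nucleotides, led with 140 counts, 14.2%.

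PICALM built its circles on 1 acceptor. All of its 3 leading circles open at position 19913189 on chromosome 9, the start of the same exon on the minus strand: chr9:19897760-19913189 (416 nucleotides, 2685 counts, 42.5%), chr9:19892116-19913189 (528 nucleotides, 1315 counts, 20.8%) and chr9:19885865-19913189 (635 nucleotides, 1234 counts, 19.5%). In all, 10 of its 19 circles use that acceptor and hold 95.2% of its counts. The leading circle had 272, 231 and 374 counts in warm Bama, 219, 191 and 270 in cold Bama, 223, 162 and 219 in warm Hezuo, and 188, 159 and 177 in cold Hezuo. Its share of the host moved between 32.6% and 51.7% over the libraries, more than that of TUT7.

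Shared acceptors of this kind were common. The 3620 circles used 1807 acceptors and 1942 donors, and 859 acceptors (47.5%) and 915 donors (47.1%) served 2 or more circles. The acceptor with the most circles was in SMARCC1, at position 30564659 of chromosome 13, with 12 circles and 46.7% of the host's counts. In MIB1, a ubiquitin ligase of the Notch pathway, 11 circles from position 106936502 of chromosome 6 held 87.2%, led by chr6:106936502-106978180 with 442 of 1067 counts. The acceptor of FAM208A, a subunit of the HUSH silencing complex that Ensembl names TASOR, served 9 circles with 92.7% of its counts, and that of the kinase TLK1 8 circles with 85.6%. SLC5A10 had 9 circles at 1 acceptor with 81.4%. At most 9 circles shared a donor, in ITGA9 (position 22397150 of chromosome 13, with 15.8% of the host's counts) and in DCAF6 (position 82951030 of chromosome 4, with 24.7%). The median host put 44.2% of its counts through its top acceptor and 38.6% through its top donor, and hosts used a median of 28.1% of the acceptor and donor pairs that could be joined among their own sites.

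**Figure D2:**
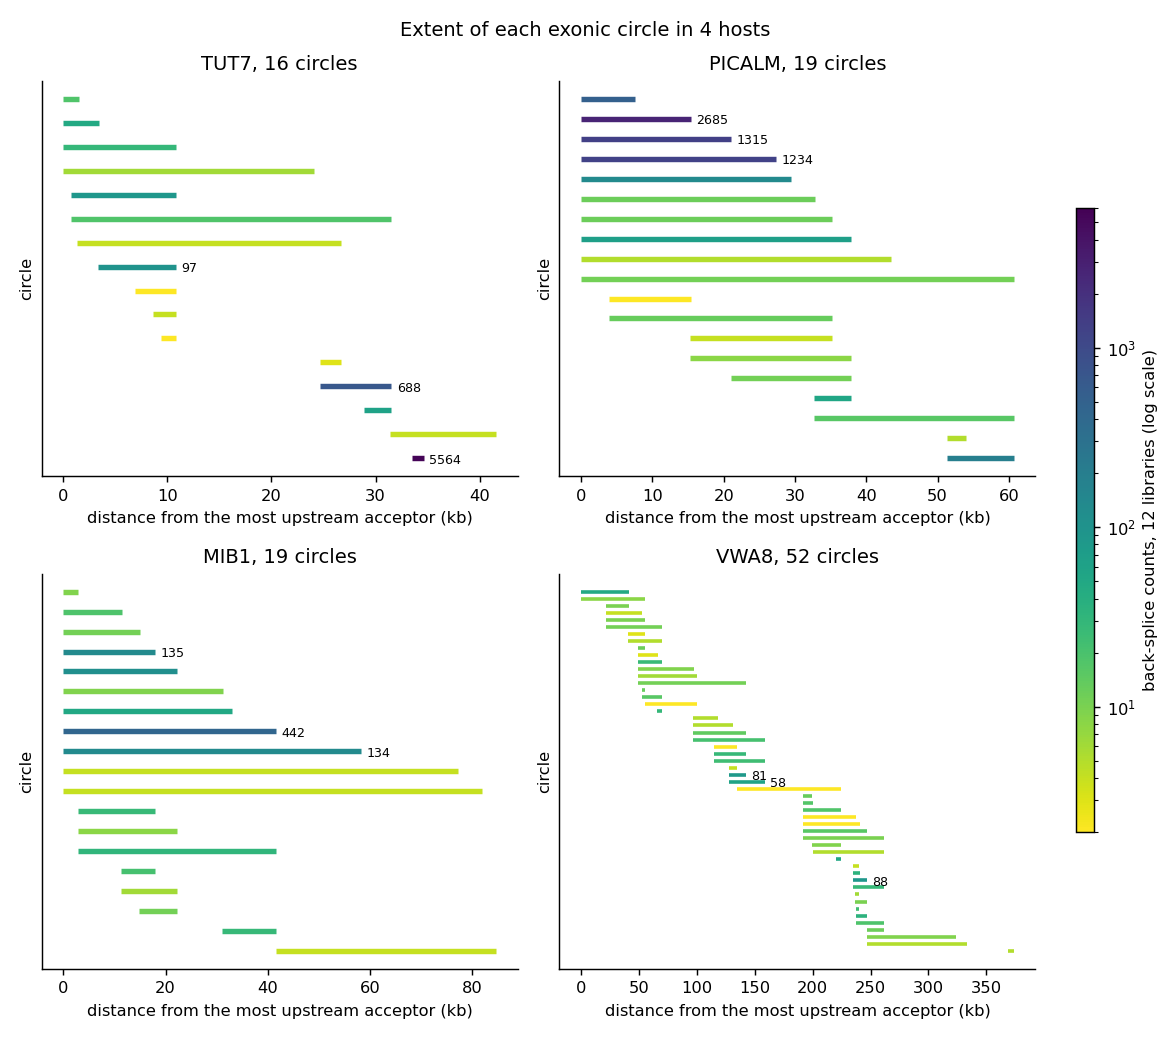
Exonic circles of TUT7, PICALM, MIB1 and VWA8, each horizontal line 1 circle drawn to scale along the host, starting at the most upstream acceptor (distance in kb), with colour from yellow to dark showing back-splice counts over all 12 libraries on a log scale and the 3 highest counts printed. TUT7 puts 5564 counts into 1 short circle, the main PICALM and MIB1 circles share 1 end, and the 52 circles of VWA8 are spread along the gene.

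Within a host most circles lay apart. Of 41670 pairs of circles of the same host, 55.2% did not overlap, 17.8% overlapped in part, 10.7% lay one inside the other with both ends different, 9.15% shared an acceptor and 7.13% shared a donor. The spliced length had a median of 666 nucleotides, from 138 to 7932, against 560 in hosts with 2 to 14 circles and 445 in hosts with 1. Pooled over hosts, the most used circles had a median of 535 nucleotides and the other circles one of 674, which was not compared within hosts; the leading circles of CHD2 and ALB, at 2127 and 813 nucleotides, are longer than both medians. Circles with at least 100 counts had a median of 605 and those under 10 counts a median of 723.5. On the genome the circles spanned a median of 13085 bases, and 270 spanned over 50000. Counts are taken at the junction alone, so the internal exons of a circle, and with them its spliced length, come from the annotation and were not read.

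The same hosts also gave other kinds of circles in smaller number. The table lists 215 circles labelled exon-intron for 87 of the hosts (4876 counts) and 73 circles of 1 exon for 54 hosts (1296 counts). It also lists 89 antisense circles for 35 hosts (522 counts) and 13 intronic circles for 12 hosts (99 counts).

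The leading circle kept its rank in some hosts and not in others. In 35 of the 165 hosts 1 circle led in all 12 libraries, and in 60 hosts the most counted circle led in 6 or fewer. Among the 12 hosts with the most counts, TRPM7 had the narrowest range of its leading share, 63.2% to 72.2%, around chr1:121217326-121230821 (1012 nucleotides). SFMBT2, a Polycomb-related repressor, ranged from 64.7% to 81.0% around chr10:63899363-63912175, and KNG1 from 46.9% to 63.7% around chr13:124524484-124534067. Wider ranges came from ABCA6, a lipid transporter of the ABC family, with 36.9% to 73.2%, and ACSS3, a mitochondrial acyl-CoA synthetase, with 25.5% to 57.9%. These 2 hosts had fewer counts in all, 1918 and 1787, than TRPM7 with 3581, and the part of counting error in their range was not tested.

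**Figure D3:**
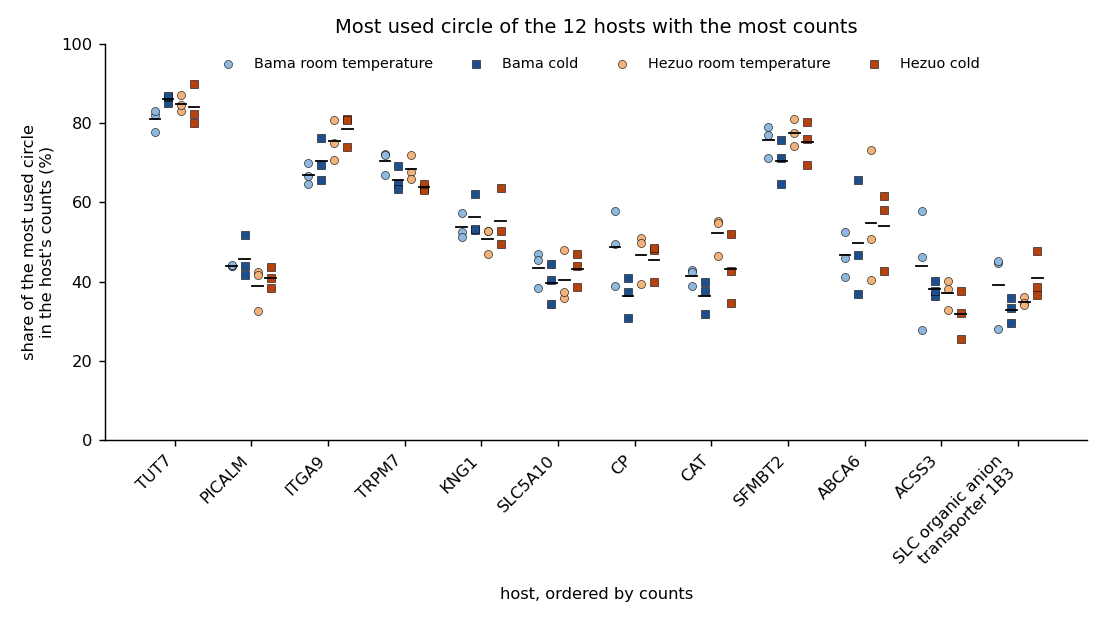
Share of the host's back-splice counts held by its most used circle (percent, from 0 to 100), for the 12 hosts with the most counts, each point 1 library coloured by group. TUT7 stays between 77.8% and 89.9%, while ABCA6 runs from 36.9% to 73.2%, and the 4 groups intermix in most hosts.

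Hosts fell into several functional groups, described by lists of genes. Of the listed liver genes of metabolism, transport and plasma proteins, 15 of 106 were member hosts, with 395 circles and 15977 counts, led by KNG1, ceruloplasmin (CP), catalase (CAT) and ABCA6. Ubiquitin ligases and proteases gave 14 hosts of 68 genes with 346 circles (ITCH, WWP1, MIB1 and BIRC6 led by counts), and chromatin and transcription regulators 14 of 94 with 337 circles (SMARCC1, ZMYM4, CHD2 and KMT2C). Cytoskeleton and adhesion genes gave 11 of 90 (PARD3, NF1, CEP350 and DST), RNA processing and translation 10 of 87 (among them SMG1, PUM2 and LARP4), membrane traffic 9 of 78 (PICALM, RABGAP1, SEC24A and DENND4C), and kinases and phosphatases 6 of 98 (ACVR1, PPP6R3, JAK2 and ATM). The liver list differed from the others in its level of linear RNA: its hosts had a median of 210.6 FPKM (fragments scaled to gene length and library size), against 10.4 for chromatin regulators and 11.6 for the ubiquitin list. A KEGG pathway was annotated for 72 member hosts. The most frequent were metabolic pathways with 12 hosts (16.7%, against 21.9% of all 1974 annotated exonic hosts) and human papillomavirus infection with 11 (15.3% against 5.27%). Nearly every pathway with 4 or more member hosts had a larger share than among all hosts, so these shares single out none.

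Circle output was only loosely tied to the level of the linear RNA. Member hosts had a median of 13.3 FPKM, against 7.75 for hosts with 2 to 14 circles and 5.88 for hosts with 1. The number of listed circles itself depends on counts, and the part of this in these medians was not tested. Over the 165 hosts, FPKM and the circles' RPM (back-splice reads scaled to their library total) correlated at a rho of 0.40. The quotient of circle RPM and host FPKM, which serves here only to rank hosts against each other, had a median of 50.7. It was lowest in the secreted plasma proteins complement C3 (0.051), transferrin (TF, 0.059) and albumin (ALB, 0.075), and highest in TUT7 (364), ALMS1 of the ciliary base (358), TRPM7 (342), the cohesin acetyltransferase ESCO1 (339) and the Polycomb subunit PHC3 (324). ALB had a mean of 35752.8 FPKM and 1721 circle counts, while TUT7 had 29.2 FPKM and 6632. Reads of a circle's exons also count toward the gene in a library of this kind, so the linear value is a total of both forms; the share was not measured.

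Between the groups the set as a whole differed little. Its share of exonic back-splice counts was 23.0% ± 0.585 (SD, n = 3) in warm Bama, 21.8% ± 0.338 in cold Bama, 23.2% ± 0.414 in warm Hezuo and 22.5% ± 0.367 in cold Hezuo. In this share every warm Bama pig (22.5% to 23.6%) lay above every cold Bama pig (21.5% to 22.1%), while the Hezuo groups overlapped. The number of member circles seen per library was 1853 ± 132, 1619 ± 131, 1628 ± 64.3 and 1566 ± 114 in the same order. At an equal depth of 39117 back-splice counts these became 1584 ± 32.4, 1509 ± 57.0, 1525 ± 38.5 and 1498 ± 56.2, so most of the gap between warm Bama and the rest went with depth. The median share of the leading circle was 31.0% ± 2.12, 31.5% ± 1.59, 31.1% ± 1.82 and 31.2% ± 1.43, differences smaller than the spread between pigs. These averages were not tested.

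Cold changed the circle totals of 4 hosts: 3 fell and 1 rose. In a host's total, the counts of its exonic circles are summed and tested with edgeR's quasi-likelihood method over all 3393 hosts that pass the count filter, as an average over both breeds, with Benjamini-Hochberg adjustment. A call is an adjusted p below 0.05, and 0.766% of all hosts were called. The 4 called of 165 are few, and the median difference over member hosts was -0.07 on the log2 scale against -0.02 over all hosts. The pigs within a group are separate animals, and p-values measure the spread between them.

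The circles of ALB, the main plasma protein, fell by 0.76 on the log2 scale (SE 0.16, edgeR adjusted p = 0.000793). They had 228, 135 and 267 counts in warm Bama and 38, 79 and 159 in the cold, and 186, 150 and 183 in warm Hezuo and 116, 64 and 116 in the cold. Scaled to library size, the Bama groups had 3715 ± 733 and 2108 ± 1240 CPM and the Hezuo groups 4250 ± 471 and 2596 ± 695 CPM (SD, n = 3). The cold pigs were mostly lower in both breeds, but the warm and cold values overlapped. Of 12 ALB circles tested 10 had a lower value in the cold, and the linear ALB RNA moved by -0.99 (SE 0.37) with an adjusted p of 0.137. ALB is itself on the hepatocyte marker list, whose summed level was lower in the cold, and the part of that in this result was not tested.

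ABCA6 circles fell by 0.72 (SE 0.15, edgeR adjusted p = 0.00118). They went from 206, 228 and 228 counts to 73, 124 and 65 in Bama, and from 228, 205 and 168 to 154, 108 and 131 in Hezuo. Within each breed every cold pig had fewer raw counts than every warm pig, and all 14 tested ABCA6 circles had lower values in the cold. Depth differed too: cold Hezuo pig 1 had 154 of 42562 back-splice counts and warm Hezuo pig 3 had 168 of 46941. Against depth these pigs were about level. The linear ABCA6 RNA moved by -0.39 with an adjusted p of 0.175.

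UNKL, a zinc finger protein related to unkempt, had 66, 77 and 76 circle counts in warm Bama, 23, 26 and 27 in the cold, 52, 42 and 37 in warm Hezuo, and 27, 38 and 21 in the cold. Its total fell by 0.80 (SE 0.22, edgeR adjusted p = 0.0443), most visibly in Bama. This call was kept in 1 of the 12 fits that leave out 1 pig each, whereas ALB and ABCA6 kept theirs in all 12.

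PCCA was the host whose circles rose, by 0.78 (SE 0.18, edgeR adjusted p = 0.00377). PCCA carries the biotin of the mitochondrial enzyme that breaks down propionyl-CoA. Its circles had 86, 76 and 81 counts in warm Bama and 91, 111 and 206 in the cold, and 71, 30 and 54 in warm Hezuo and 64, 39 and 95 in the cold. The groups overlapped, and 21 of 23 tested PCCA circles had higher values in the cold. It was also the 1 host of the 4 whose linear RNA was called: 41.6, 50.9 and 48.2 FPKM against 76.9, 85.7 and 84.97 in Bama, and 54.6, 37.8 and 52.5 against 58.5, 75.8 and 85.9 in Hezuo, a rise of 0.61 (SE 0.13, adjusted p = 0.0321). For the linear RNA the warm and cold pigs did not overlap.

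These host calls depended on the pigs and on the scale. Without cold Bama pig 3, without warm Hezuo pig 2 or without cold Hezuo pig 3, 2 hosts were called in place of 4, and PCCA was among those lost. With a term for Y-linked RNA ALB alone stayed. Scaling the circles by the gene table, which moves the median cold difference of all circles from -0.06 to -0.25, gave 8 hosts, all lower, and lost PCCA.

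No single member circle was called in the cold comparison by edgeR (0 of 1669, with 123 at an unadjusted p below 0.05 and 0 by DESeq2), where 0.199% of all 9032 tested circles were. The smallest p belonged to a circle of the ubiquitin ligase UBE3C, chr18:1565896-1580497, with 9, 5 and 1 counts in warm Bama, 19, 10 and 21 in the cold, 0, 2 and 0 in warm Hezuo and 3, 7 and 3 in the cold (log2 difference 2.36, SE 0.63, edgeR adjusted p = 0.0752). The next were a circle of the BMP receptor ACVR1, chr15:64771605-64777189, at -1.36 (adjusted p = 0.0886), and the leading ALB circle, chr8:69649353-69657110, at -0.86 (adjusted p = 0.0928). None of the 3 passed the threshold. The count stayed low but not at 0 in some fits: 1 circle was called without warm Bama pig 1, without warm Hezuo pig 1 or 2 or without cold Hezuo pig 3, and 2 without cold Bama pig 2 or 3.

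More hosts were called in the cold by linear RNA, which has far more counts, than by circles. Of 165 hosts 12 were called, 6 higher and 6 lower, which is read against 3.89% of all 13532 genes. Those higher were MYO16, an unconventional myosin, by 1.02 (SE 0.15, edgeR adjusted p = 0.00779), the lipid kinase PIK3C2G by 0.83, the peroxisomal protease LONP2 by 0.78, PCCA by 0.61, the proteasome activator PSME4 by 0.47, and ubiquitin specific peptidase 32, named by its description, by 0.35. Those lower were TF, which carries iron in plasma, by -1.04 (SE 0.18, adjusted p = 0.0156), CORIN, the protease that activates atrial natriuretic peptide, by -0.95, ACVR1 by -0.60, fibronectin (FN1) by -0.59, the fibrinolysis inhibitor CPB2 by -0.42 and the tight junction protein PATJ by -0.39. In MYO16 the level was 2.19, 2.92 and 2.66 FPKM in warm Bama and 8.76, 7.98 and 7.80 in the cold, and 2.81, 5.30 and 3.86 against 5.49, 6.10 and 7.34 in Hezuo, so every cold pig lay above every warm pig of its breed. CORIN had 6.99, 7.14 and 7.04 FPKM in warm and 3.42, 1.74 and 1.82 in cold Hezuo, against 8.61, 9.73 and 10.2 and 7.66, 8.42 and 8.78 in Bama, so the gap was wider in Hezuo, though the difference between the breeds, -1.45, had an adjusted p of 0.216. Without warm Bama pig 1, cold Bama pig 3, warm Hezuo pig 3 or cold Hezuo pig 2 the count of hosts was 7, and without warm Bama pig 3, warm Hezuo pig 2 or cold Hezuo pig 3 it was 5. MYO16, PIK3C2G, TF, CORIN and ACVR1 kept their call in all 12 fits that leave out 1 pig each. FN1 kept it in 8, LONP2 in 6, PCCA in 5 and ubiquitin specific peptidase 32 in 4. PSME4 and PATJ kept it in 2 and CPB2 in 0. DESeq2 called 24, and the fit with that term for Y-linked RNA called 0.

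For most of these hosts the circles gave no call beside the linear one. The circle total of MYO16 had a difference of 0.53 (adjusted p = 0.454), TF -0.78 (0.340), FN1 -0.86 (0.301), ACVR1 -0.50 (0.244) and CORIN -0.13 (0.946). Of the 12 hosts called by linear RNA 10 had a circle difference of the same sign, and over all 165 hosts 107 did, with a rho of 0.42 between both log2 differences. The ratio of circles to linear RNA, tested in 1 model over both kinds of count, was called for 0 of 165 hosts in the cold (11 at an unadjusted p below 0.05 in edgeR; 0.0% of all 3376 hosts called; not run in DESeq2). The smallest p was that of gephyrin (GPHN), a molybdenum cofactor enzyme, with a difference of -0.83 and an adjusted p of 0.313. The use of circles within a host was called for 0 of 165 (16 at an unadjusted p below 0.05 in edgeR, 0 by Simes' method over its circles; 0.0% of all 1636 hosts called).

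The breeds differed in the circle totals of 7 hosts, 3 higher and 4 lower in Hezuo as an average over both temperatures, where 1.97% of all hosts were called. The clearest was the host described as solute carrier organic anion transporter family member 1B3, a hepatocyte uptake carrier that has no symbol in the table. Its circles had 118, 121 and 157 counts in warm Bama, 57, 108 and 117 in the cold, and 188, 182 and 176 in warm Hezuo and 176, 130 and 234 in the cold. Scaled to library size these are 2385 ± 263, 2195 ± 456, 4472 ± 114 and 4704 ± 837 CPM (SD, n = 3), and the breeds did not overlap. The total was 1.001 higher in Hezuo on the log2 scale (SE 0.16, edgeR adjusted p = 9.53e-08), and 18 of 19 tested circles had higher values there. Its linear RNA was higher by 1.16 (SE 0.18, adjusted p = 0.00496), also without overlap, and hosts of this transporter family are close paralogs, so reads may be shared among them.

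SLC5A10 circles had 269, 115 and 286 counts in warm Bama, 114, 151 and 154 in the cold, 306, 242 and 236 in warm Hezuo and 219, 155 and 308 in the cold, and were 0.77 higher in Hezuo (SE 0.15, edgeR adjusted p = 3.04e-05). Its linear RNA was 0.36 higher with an adjusted p of 0.077. ABCA6 was the third higher host, by 0.51 (SE 0.15, edgeR adjusted p = 0.0470), so its circles were called in both comparisons. Between breeds this call was kept in 5 of the 12 fits that leave out 1 pig each.

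Of the lower hosts, USP40, a deubiquitinase, stood apart most. It had 35, 57 and 54 circle counts in warm Bama, 33, 30 and 36 in the cold, 12, 14 and 16 in warm Hezuo and 18, 8 and 21 in the cold. No Hezuo pig reached the lowest Bama pig, the total was lower by -1.16 (SE 0.27, edgeR adjusted p = 0.00211), and 6 of 6 tested circles were lower. Its linear RNA had a difference of -0.33 (adjusted p = 0.0882). TRPM7 also separated the breeds without overlap in circle CPM, with 497, 407, 434, 237, 319 and 376 counts in the 6 Bama pigs against 216, 267, 210, 184, 228 and 206 in the 6 Hezuo pigs, at -0.47 (SE 0.14, adjusted p = 0.0393). VPS13B, a lipid transfer protein of the Golgi, was lower by -0.83 (SE 0.24, adjusted p = 0.0298) with a linear difference of 0.02.

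PARD3, a scaffold of cell polarity, had fewer circles in Hezuo and no called change in linear RNA. Its circles had 109, 109 and 122 counts in warm Bama and 126, 137 and 158 in the cold, against 72, 62 and 69 in warm Hezuo and 61, 71 and 69 in the cold. The raw counts of the breeds did not overlap, while CPM did, and the total was lower by -0.61 (SE 0.17, edgeR adjusted p = 0.0239) with 16 of 19 tested circles lower. The linear RNA lay between 14.8 and 24.5 FPKM in Bama and between 16.8 and 20.7 in Hezuo, with a difference of 0.21 in scaled counts (adjusted p = 0.146). The ratio of circles to linear RNA was therefore lower in Hezuo by -0.82 (SE 0.17, adjusted p = 0.0146), 1 of 2 ratios called among the 165 hosts, where 0.652% of all hosts were.

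The other ratio was that of catalase, the peroxisomal enzyme that splits hydrogen peroxide. Here the linear RNA differed: 1490, 2630 and 2330 FPKM in warm Bama, 1350, 1720 and 1880 in the cold, 3120, 2872 and 3260 in warm Hezuo and 2850, 2520 and 1810 in the cold, higher in Hezuo by 0.79 (SE 0.18, edgeR adjusted p = 0.0200) with overlap. The CAT circle total had a difference of 0.04 (SE 0.15, adjusted p = 0.975), and the ratio was lower by -0.77 (SE 0.19, adjusted p = 0.0430). The CAT ratio was called in 3 of 12 fits that leave out 1 pig, and that of PARD3 in all 12. Leaving out warm Bama pig 1, cold Bama pig 1 or 2 or any 1 of the 6 Hezuo pigs therefore left 1 called ratio.

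Host totals between breeds numbered 4 without warm Bama pig 1 or warm Hezuo pig 1 and 3 without cold Hezuo pig 1. The transporter 1B3 host, SLC5A10 and USP40 were called in all 12 such fits. PARD3 was called in 6, TRPM7 and ABCA6 in 5 and VPS13B in 4. With a term for Y-linked RNA the transporter host was kept and GPHN added. On the gene table's scale TRPM7, VPS13B and PARD3 were lost.

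Among the linear RNAs, 18 hosts differed between breeds, 10 higher and 8 lower in Hezuo, against 12% of all genes. The higher ones were led by ACAD11, an acyl-CoA dehydrogenase, with 47.4, 31.7, 19.2, 12.7, 20.1 and 16.9 FPKM in the 6 Bama pigs and 41.4, 40.9, 43.7, 63.9, 51.0 and 66.0 in the 6 Hezuo pigs, a difference of 1.35 (SE 0.20, edgeR adjusted p = 0.0044). These breeds did not overlap in scaled counts, though their FPKM values did. DMGDH of choline breakdown was higher by 0.98, the alpha-fetoprotein-like host by 0.93, CAT by 0.79 and DENND5B, an exchange factor of Rab proteins, by 0.55. Lower were CORIN by -0.87, ESCO1 by -0.59, PIK3C2G by -0.54, the chromosome silencing protein SMCHD1 by -0.48, the translesion polymerase REV3L by -0.46 and the exonuclease XRN1 by -0.36. ESCO1 had 4.58, 3.53, 3.88, 4.28, 6.07 and 4.58 FPKM in Bama and 1.81, 2.69, 2.06, 1.88, 2.99 and 2.53 in Hezuo, without overlap, while its circle total had a difference of 0.02 (SE 0.19). Over the 165 hosts 94 had circle and linear differences of the same sign, with a rho of 0.26. The count of called linear RNAs was 8 without warm Hezuo pig 1, 34 by DESeq2 and 0 with the Y-linked term. Of the hosts named here ACAD11, DMGDH, DENND5B, CORIN, SMCHD1 and XRN1 were called in all 12 fits without 1 pig. CAT, ESCO1 and REV3L were called in 11, PIK3C2G in 8 and the alpha-fetoprotein-like host in 3.

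By list, the calls were few in any one group. The lists hold 79 of the 165 hosts; ALB, TF, the transporter 1B3 host, ACAD11 and DMGDH are in none of the 7. In the cold comparison the liver list had 2 of 15 circle totals called, PCCA higher and ABCA6 lower, and the other 6 lists had 0. Between breeds ABCA6 was higher in the liver list, USP40 lower in the ubiquitin list, VPS13B lower in membrane traffic and PARD3 lower in the cytoskeleton list, and 0 were called by edgeR among the 14 chromatin regulators, the 10 RNA processing hosts and the 6 kinases and phosphatases. The median difference of circle totals ranged over the 7 lists from -0.16 (liver) to -0.02 (cytoskeleton) in the cold, against -0.02 over all hosts, and from -0.11 (RNA processing) to 0.10 (kinases and phosphatases) between breeds, against -0.01. Of linear RNAs, PCCA was higher and FN1 lower in the cold among the 15 liver hosts, and CAT and FN1 were higher in Hezuo; ACVR1 of the kinases was lower in the cold, DENND5B of membrane traffic was higher and CEP350 and XRN1 were lower in Hezuo. These calls are too few to set one list apart from another.

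Of the single circles 16 of 1669 differed between breeds, 9 higher and 7 lower in Hezuo, where 1.28% of all circles were called; 195 had an unadjusted p below 0.05. They came from 14 hosts. In 7 the circle was the most used of its host, in 5 the host total was called too, and 6 held under 5% of the host's counts. The split of the calls moved with scaling, to 13 higher and 3 lower on the gene table's scale and 13 and 4 under RLE scaling, as lower circles dropped out and higher ones were added.

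Circles counted in 1 breed only made up 3 of the 16. A circle of the deubiquitinase USP24, chr6:157280253-157282222 (378 nucleotides), had 0 counts in all 6 Bama pigs and 10, 4, 0, 9, 1 and 16 in the 6 Hezuo pigs, the last 3 in the cold. Against a floor of 3 counts over the whole breed it was at least 15.95-fold higher in Hezuo (edgeR adjusted p = 6.28e-05). A circle of SECISBP2, which reads the selenocysteine signal in messenger RNA, chr14:913111-945397 (1717 nucleotides), had 0 counts in Bama and 4, 3, 2, 7, 6 and 10 in Hezuo, at least 12.8-fold higher (adjusted p = 0.000959). The reverse was seen for a circle of the kinase BRAF, chr18:9065917-9118627, with 1, 6, 1, 9, 1 and 2 counts in Bama and 0 in Hezuo, at least 5.57-fold lower in Hezuo (adjusted p = 0.0404). These 3 circles passed the count filter through the breed that has them, and so did those of BIRC6, LONP2 and ACSS3 (through Hezuo) and the longer CP circle (through Bama), so a circle of this kind had to differ to be tested. Every Hezuo pig had the SECISBP2 circle and every Bama pig the BRAF circle, whereas 1 Hezuo pig lacked that of USP24.

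The circles that are the most used of their host had larger counts, and 5 of the 7 follow here. The leading circle of the transporter 1B3 host, chr5:52140659-52169113, had 33, 54, 71, 19, 32 and 42 counts in Bama and 68, 63, 60, 68, 62 and 86 in Hezuo, without overlap in CPM, and was 1.002 higher (SE 0.22, edgeR adjusted p = 0.00147). That of SLC5A10, chr12:60366858-60376920, was 0.73 higher (SE 0.20, adjusted p = 0.0225), also without overlap. That of C5, the complement protein cleaved to an anaphylatoxin, chr1:261061492-261067829, had 76, 106, 115, 101, 91 and 45 counts in Bama and 28, 43, 30, 38, 52 and 56 in Hezuo, and was lower by -0.91 (SE 0.21, adjusted p = 0.0037). The C5 total had a difference of -0.50 with an adjusted p of 0.120. TRPM7's leading circle was lower by -0.56 (SE 0.16, adjusted p = 0.0394), and that of PARD3, chr10:57201061-57212680, by -1.38 (SE 0.33, adjusted p = 0.0044).

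Ceruloplasmin, the copper-carrying ferroxidase of plasma, gave 2 lower circles that open at the same acceptor, position 89457044 of chromosome 13. The longer, chr13:89423754-89457044 (2139 nucleotides), had 0, 6, 13, 10, 11 and 31 counts in Bama and 1, 2, 4, 0, 0 and 0 in Hezuo, with a fitted difference of -4.08 (SE 0.83, edgeR adjusted p = 0.000226). The shorter, chr13:89448761-89457044 (890 nucleotides), had 25, 29, 54, 31, 39 and 40 in Bama and 3, 20, 23, 16, 21 and 4 in Hezuo, at -1.03 (SE 0.30, adjusted p = 0.0415). All 3 cold Hezuo pigs were at 0 for the longer circle. The CP total had a difference of -0.39 (adjusted p = 0.205), and its leading circle, chr13:89427501-89447329 with 1109 counts, was not called.

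The remaining 6 circles, among them the most used ones of CPB2 and DPYD, had lower counts or more overlap. Higher in Hezuo were circles of CPB2 (chr11:21256152-21275708; 3, 16, 6, 1, 11 and 18 counts in Bama, 26, 15, 9, 32, 26 and 21 in Hezuo, adjusted p = 0.00824 in edgeR), BIRC6 (chr3:107207592-107229406; 1, 0, 2, 0, 0 and 0 against 11, 0, 1, 7, 11 and 0), LONP2 (chr6:36428808-36449049; 0, 0, 0, 1, 0 and 1 against 3, 0, 7, 0, 4 and 11), ACSS3 (chr5:100357377-100357634; 0, 0, 0, 4, 0 and 0 against 5, 18, 6, 0, 0 and 8) and a second SLC5A10 circle (chr12:60370050-60376568; 9, 2, 6, 1, 2 and 4 against 30, 9, 8, 6, 8 and 9). Lower was 1 of DPYD, the first enzyme of pyrimidine breakdown (chr4:120132223-120186848; 11, 16, 14, 16, 26 and 20 against 4, 1, 3, 11, 5 and 10). In BIRC6, LONP2 and ACSS3 the difference rested on a few Hezuo pigs, since 2 of the 6 were at 0.

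**Figure D4:**
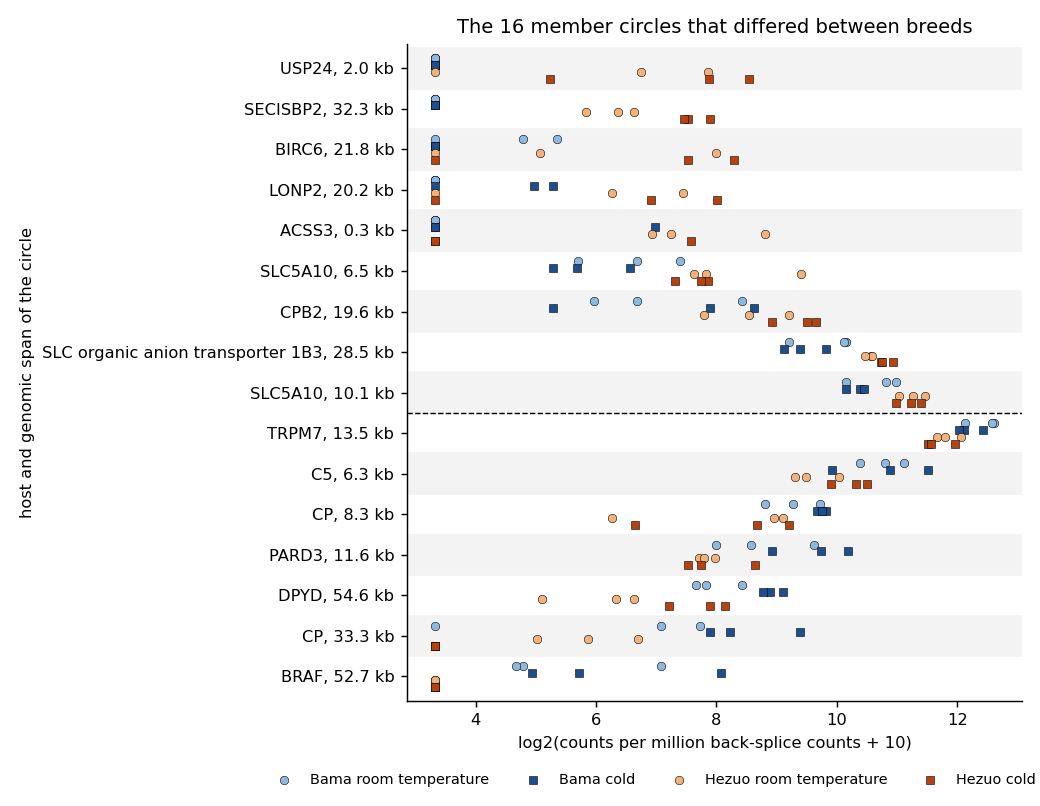
The 16 circles called between breeds, each row 1 circle with its host and genomic span, each point 1 pig, on a log2 axis of CPM of back-splice counts plus 10, with circles higher in Hezuo above the dashed line and those lower below. The USP24 and SECISBP2 circles have 0 counts in every Bama pig and the BRAF circle in every Hezuo pig, while most other rows overlap.

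Single pigs bore on several of these calls. Without warm Bama pig 2, 10 circles were called, 8 of them among the 16. Without cold Bama pig 1, 9 were called, 8 of them among the 16, and without warm Hezuo pig 1, 7 were called, all among the 16. The circles of USP24, SECISBP2 and the transporter 1B3 host and the longer CP circle were called in all 12 fits without 1 pig, C5 in 11, PARD3 in 10, CPB2 and BIRC6 in 9, the leading SLC5A10 circle in 8 and ACSS3 in 7. The second SLC5A10 circle was called in 5, BRAF and the shorter CP circle in 4, TRPM7 in 3, LONP2 in 2 and DPYD in 1. The count filter was not redone in these fits. The circles of USP24, SECISBP2, BRAF, BIRC6, LONP2 and ACSS3 and the longer CP circle passed it through 1 breed. For these circles the calls in such fits are no separate support. With a term for Y-linked RNA the longer CP circle alone was kept among the 16.

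The use of circles within a host differed between breeds for 3 of 165 hosts, where 0.428% of all 1636 hosts were called. An unadjusted edgeR p below 0.05 was found for 50 of the 165. The share of all hosts below that p is not set beside it, so it is not read as a trait of these hosts. In SECISBP2 (edgeR adjusted p = 0.00472) the circle named above made up 0% of the host's counts in Bama, 9.28% in warm Hezuo and 28.4% in cold Hezuo. In USP24 (adjusted p = 0.00375) the circle with no counts in Bama made up 16.5% in warm and 32.5% in cold Hezuo. The leading USP24 circle, chr6:157293187-157294263, held 70.9% in warm and 46.3% in cold Bama and 45.9% in warm and 18.8% in cold Hezuo, so its pooled share was lower in the cold within both breeds, with 1 cold Bama pig at 7.14%. Its own breed difference had an unadjusted edgeR usage p of 0.063. The SECISBP2 and USP24 calls rest on circles that passed the count filter through Hezuo alone. In ITGA9 (adjusted p = 0.00297) the circle with the smallest usage p was the rare chr13:22480796-22526010, which held 1.70% in Bama and 0.255% in Hezuo. Its leading circle, chr13:22318659-22335113, held 68.7% and 77.6%, with an unadjusted edgeR usage p of 0.51. By Simes' method over the circles of a host 2 of the 3 hosts were called, and ITGA9 was not. None of these 3 hosts had a called circle total or a called linear RNA between breeds. The count was 6 without cold Bama pig 3 and 1 without cold Hezuo pig 3.

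The difference between the breeds in their response to cold was called for no member in edgeR. It was 0 of 1669 circles (81 at an unadjusted p below 0.05, 0 by DESeq2; 0.0886% of all circles called), 0 of 165 circle totals (5, and 0 by DESeq2; 0.0589%), 0 of 165 linear RNAs (14, and 4 by DESeq2, namely ACAD11, COG3, CORIN and DENND4A; 0.00739%), 0 of 165 ratios (8; 0.0%) and 0 of 165 for circle use (13, and 0 by Simes' method; 0.0611%). The smallest p among circle totals were those of the protease inhibitor A2M at -1.87 and MYO16 at -1.55, both with an edgeR adjusted p of 0.287. A2M was called without cold Hezuo pig 2, and 1 linear RNA was called without cold Hezuo pig 1 and 2 without warm Bama pig 3. Of single circles, that of the cytokine receptor IL6ST, chr16:35117005-35123287, had 3, 3 and 5 counts in warm Bama, 7, 11 and 6 in the cold, 2, 5 and 5 in warm Hezuo and 0, 0 and 0 in the cold, but did not pass the threshold.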

How the data were processed

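Liver RNA of 12 pigs was sequenced, 3 in each of 4 groups. For each circRNA the authors deposited raw back-splice counts, RPM values scaled to the library's back-splice total, the spliced length, and coordinates counted from 1. For each gene the authors deposited estimated counts, rounded here for tests, and FPKM values. The submitters' processing notes name fastp. Which aligner, circRNA caller, gene counter and build were used is not given in the sources used here.

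Tests used edgeR 4.0.16 in R 4.3.3 (robust quasi-likelihood, TMM scaling, 4 groups, all 12 libraries, 8 residual degrees of freedom). Circles and host sums needed at least 2 counts in 3 libraries and 10 in all; linear RNA passed filterByExpr. The ratio was tested in 1 model over both kinds of count with a term for each pig, and circle use by diffSpliceDGE. Numbers at an unadjusted p below 0.05 are given for members alone, without the share over all features. They are not read as a trait of the members. The Y-linked covariate is whether DDX3Y reached 100 estimated counts. The scripts were tested on simulated counts with an assumed spread. For circles, host sums and ratios, changes were planted only in features with a higher mean count than the filter asks for. For circle use only the most counted circle of a host was changed. Recovery for rarer circles, to which most members belong, was not measured. Of 2-fold changes 5.0% were recovered for circles, 27.5% for host sums, 47.0% for genes, 23.0% for ratios and 1.5% for circle use. Of 4-fold changes 83.0%, 99.0%, 100.0%, 98.0% and 32.0% were recovered in the same order. A count of 0 calls therefore does not show that changes of such size are absent. DESeq2 1.42.0, limma 3.58.1, Python 3.11.15 and pandas 2.3.3 were also used. No per-sample column was left unused. Replicates of a group correlated at r = 0.624 to 0.707 over circles, and their counts differed by a chi-square of 2.47 to 3.70 per degree of freedom, which exceeds sampling noise, so none was merged. Reads are not unique molecules, so counting errors cover sequencing only. Counts of overlapping hosts or paralogs may share reads.

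The members, lists and tests were chosen with earlier results of these data known. Named were the 12 hosts with the most circles and with the most counts, the leading circles, and per comparison up to 6 called increases and 6 decreases, or the smallest p where under 3 were called. Hosts known by a description alone and further called items were named outside that rule, after their values were seen. Sequences were not used here.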

Additional observations from a re-analysis of the deposited data

How the results depend on the processing

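Calls were few, and many lay near the threshold. On the gene table's scale, cold called 5 circles (0 as reported) and 8 host totals (4), and breed 4 host totals (7). DESeq2 called 9 circles between breeds (16), and among linear RNAs 24 in the cold (12), 34 between breeds (18) and 4 for the difference between breeds in the response to cold (0). Without a low-count filter 9 circles were called between breeds; at 20 counts in all, 25 were, and 1 in the cold. With the Y-linked covariate the cold calls were 2 circles and 1 host total, and the breed calls 2 circles and 2 host totals. In either comparison 0 linear RNAs were called. That RNA is present in all 6 Hezuo and 2 of 6 Bama pigs, both in the cold, so within a group it varies only in cold Bama. This fit therefore cannot tell Y-linked RNA apart from breed and temperature, and the cause of the lost calls was not tested. Leaving out 1 pig at a time gave 0 to 2 circles, 2 to 4 host totals and 5 to 11 linear RNAs in the cold, 7 to 17 circles, 3 to 8 host totals, 8 to 21 linear RNAs, 1 to 2 ratios and 1 to 6 hosts with changed use between breeds, and 0 circles, 0 to 1 host totals and 0 to 2 linear RNAs for the difference in response; ratio and use stayed at 0 in the cold and for that difference. A replicate block gave 12 circles and 8 host totals between breeds and 5 host totals in the cold. With it 9 linear RNAs were called in the cold and 15 between breeds, all within 1.5 times. Deviations of pigs of the same number correlated at r from -0.03 to 0.03 over circles and -0.20 to 0.15 over genes. For pigs of other numbers r ran from -0.04 to 0.02 and from -0.24 to 0.17. These values cannot decide whether the numbers pair animals or share a batch. RLE scaling gave 17 circles between breeds, 13 of them among the 16.

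With 10 circles needed per host the set would hold 45.3% of exonic counts, with 20 it would hold 14.2%, and with rows of at least 5 counts only 16.2%, against 22.6%. The median share of the leading circle would be 33.8%, 27.1% and 27.8%, against 28.3%. The median circle had 9.5 counts, and the single circles called with a log2 difference under 1 in size were the most used of their hosts.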
